A study of Homo sapiens with 15 samples.

Results

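The genes described here are those whose products build and decorate mucin and other glycan chains, in Caco-2 cells. This line, from a human colon carcinoma, comes to resemble enterocytes once confluent. They were chosen by name, as the platform symbols beginning with MUC and a digit, GALNT, B3GNT, B3GALT, B4GALT, ST3GAL, ST6GAL, FUT and a digit, MGAT, ALG and a digit, CHST or GCNT, with the brightest row kept for each symbol. The rule found 44 symbols on 54 rows, of 14884 symbols in all, and 37 of the 44 passed the filter on dim rows described below. The label promises more mucins than the symbols hold: MUC22 was the only symbol of the MUC family, and none was found for B3GNT, B4GALT, ST6GAL or GCNT. The set was mostly 20 GALNT and 15 CHST symbols, with 3 ALG, 2 MGAT and 1 each of FUT, B3GALT and ST3GAL. By RefSeq type, 39 were protein coding, 3 were long noncoding RNAs and 2 were transcribed pseudogenes.

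Each of the 3 groups had 5 arrays. LPS+RSV cells received 50 µM trans-resveratrol (RSV, a plant polyphenol dissolved in ethanol) and, 1 h later, lipopolysaccharide (LPS, the endotoxin of E. coli K12, a ligand of TLR4) at 1 µg/mL for 48 h. LPS cells had the same exposure without resveratrol, and Control cells were left untreated. All 3 groups were the same line, grown for 15 to 19 days after seeding. The labels give no ethanol control and do not tie arrays to days, and they number the samples without calling them separate cultures, so the spread behind each p-value may be technical.

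Mucin-type O-glycosylation starts in the Golgi, where the GALNT enzymes attach N-acetylgalactosamine to serine or threonine of mucins and other secretory and membrane proteins. Fucosyl- and sialyltransferases then cap the growing chains, and in the gut FUT2 makes the H antigen of the mucus and the enterocyte surface. CHST sulfotransferases add sulfate to chondroitin, keratan and glycoprotein chains, while ALG enzymes assemble the lipid-linked precursor of N-glycans in the endoplasmic reticulum. Enterocytes carry membrane mucins and a dense glycocalyx, and the secreted mucus is chiefly the work of goblet cells.

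The cultures carried epithelial and enterocyte transcripts on every array. Averaged over 15 arrays, the log2 signals of EPCAM (11.89), VIL1 (10.95), CDX2 (8.86) and sucrase-isomaltase, SI (12.04), all lay above the filter level, which was the 40th percentile of an array and ran from 5.03 to 5.09. Of 30 enterocyte genes listed, 19 had a symbol on the platform. Among these, LCT (5.27) exceeded the filter level on 14 arrays, MGAM (4.70) on 1 and the rest on all 15. Of 13 goblet cell markers, 11 exceeded it on all 15 arrays, among them ZG16 (9.47) and TFF3 (6.87), and CLCA1 and REP15 on none. Array medians lay between 5.49 and 5.54, and pairs of arrays correlated at 0.922 to 0.994 over the tested genes. LPS+RSV 1 stood apart, with a mean correlation of 0.946 to the other arrays and a first principal component of -36.3. LPS 1 and LPS 2 stood apart on the third, at 17.8 and 19.4. LPS+RSV 1 was the array farthest from its group mean for 9 of the 37 tested genes of the set, and results resting on these arrays are given with and without them.

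All values below are log2 array signals from RMA, a method that corrects background, equalises the arrays and summarises the probes of each gene. Probes differ in brightness, so a gene is compared with itself across arrays and with the filter level, not with another gene. Of the 44 genes, 29 exceeded the filter level on all 15 arrays and 8 more did so on at least 5 of them. The 7 left out were GALNT5, GALNT13, GALNTL5, GALNTL6, CHST2, MGAT4EP and B3GALT5-AS1, of which 4 exceeded it on no array.

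**Figure D1:**
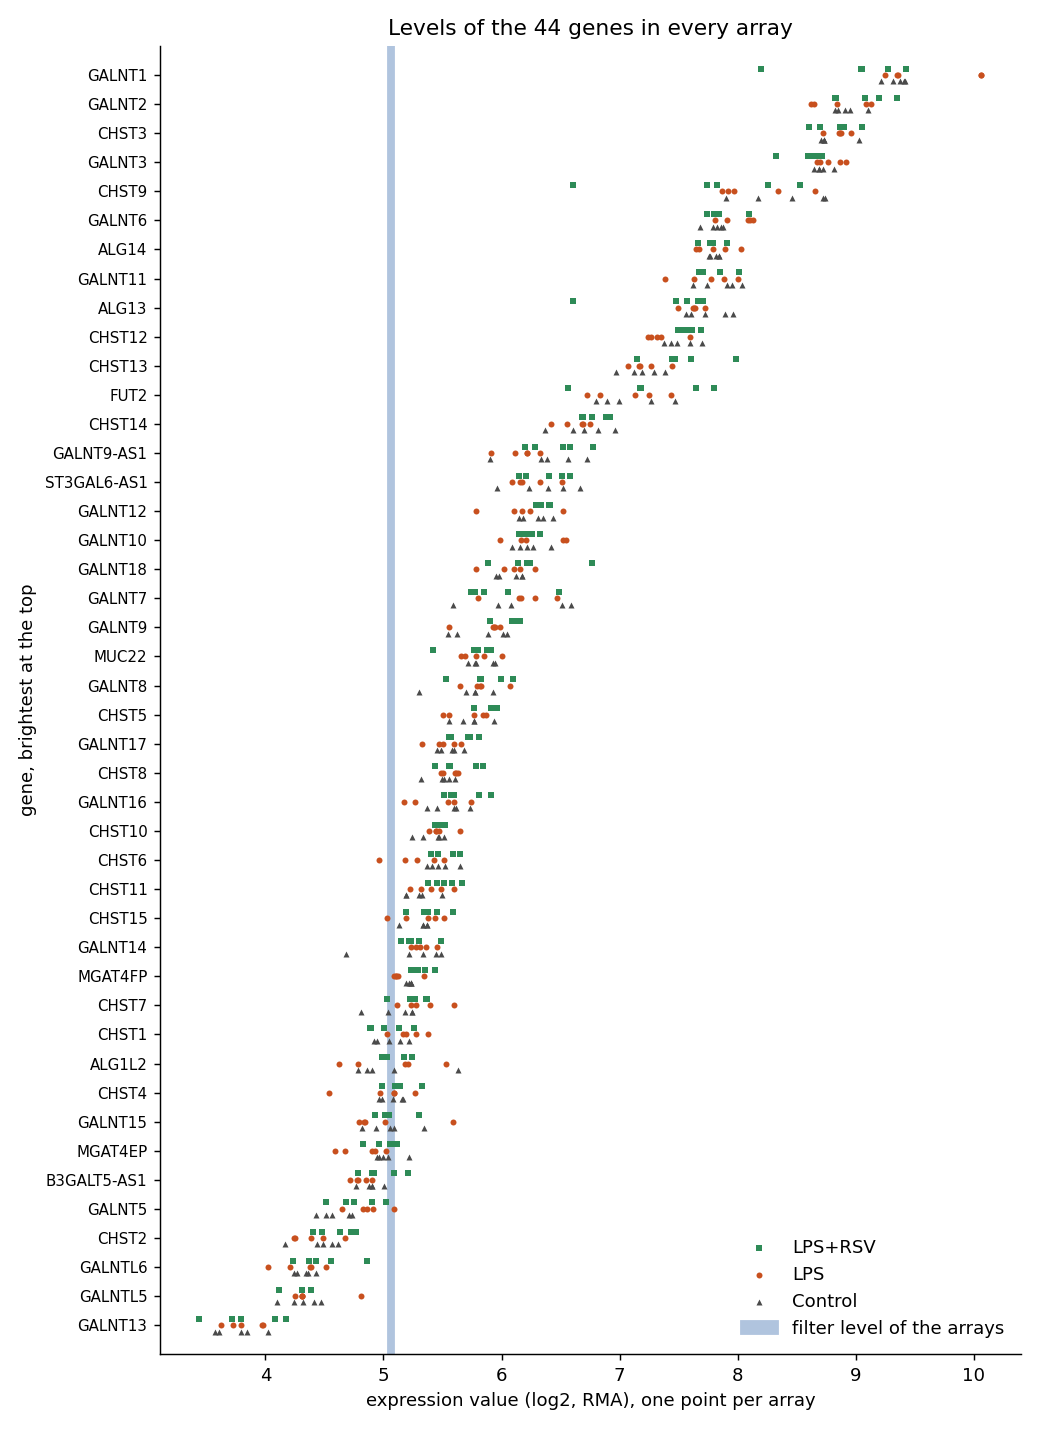
Log2 signal (horizontal axis) of the 44 genes (vertical axis) on each of the 15 arrays. Each point is 1 array, marked by group, and the band is the filter level of the arrays. CHST9, GALNT1 and ALG13 spread most, with LPS+RSV 1 as their lowest array.

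MUC22, a membrane mucin gene of the major histocompatibility region, had a low signal that exceeded the filter level on all 15 arrays. It measured 5.88, 5.80, 5.76, 5.91 and 5.42 in LPS+RSV cells, 5.69, 6.00, 5.79, 5.85 and 5.65 in LPS cells, and 5.77, 5.92, 5.78, 5.94 and 5.72 in Control cells. The 3 groups overlapped throughout. MUC22 was listed on 8 rows, some holding identical values, and its direction depended on the row: LPS minus Control was -0.03 on the row used and 0.14 to 0.15 on the other 7.

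Among the GALNT enzymes, GALNT1 and GALNT2, which act on many substrates in many tissues, and GALNT3 all exceeded the filter level on every array. GALNT1 averaged 9.00 ± 0.48 in LPS+RSV cells, 9.62 ± 0.41 in LPS cells and 9.35 ± 0.08 in Control cells (SD, n = 5 each). GALNT2 averaged 9.06 ± 0.23 in LPS+RSV cells, 8.86 ± 0.24 in LPS cells and 8.93 ± 0.11 in Control cells (SD, n = 5 each). GALNT3, known for glycosylating the phosphate-regulating hormone FGF23, averaged 8.59 ± 0.15, 8.78 ± 0.10 and 8.72 ± 0.06 in LPS+RSV, LPS and Control cells (SD, n = 5 each). GALNT7, which prefers peptides that already bear a sugar, lay at 5.59 to 6.59 over the 15 arrays, above the filter level on each. Of the other 11 tested GALNT genes, GALNT15 exceeded the filter level on 5 arrays, GALNT14 on 14 and the remaining 9 on all 15. GALNT5, GALNT13, GALNTL5 and GALNTL6 never reached the number of arrays that the filter asked for.

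FUT2, the secretor fucosyltransferase, was the single fucosyltransferase symbol and exceeded the filter level on all arrays. It measured 7.80, 6.57, 7.17, 7.18 and 7.64 in LPS+RSV cells, 7.43, 7.25, 7.13, 6.72 and 6.84 in LPS cells, and 6.80, 6.89, 7.00, 7.47 and 7.27 in Control cells. The groups overlapped, and the spread within each was wider than the distance between their means. The galactosyl- and sialyltransferase families were present only through antisense transcripts: ST3GAL6-AS1 exceeded the filter level on all arrays, at 5.96 to 6.66, and B3GALT5-AS1 on 1. Of the MGAT pseudogenes, MGAT4FP exceeded it on all 15, at 5.08 to 5.44, and MGAT4EP on 3. MGAT4FP had 2 rows, and the row not used averaged 3.63, under the filter level.

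ALG13 and ALG14, which together form the enzyme that adds the second sugar of the N-glycan precursor, both exceeded the filter level on every array. ALG14 varied little, at 7.65 to 8.03, a span of 1.31-fold over 15 arrays. ALG13 spanned 2.57-fold, with 6.60 on LPS+RSV 1 and 7.48 to 7.96 on the other 14 arrays. ALG1L2, a close relative of ALG1 whose probes may not tell the copies apart, exceeded the filter level on 7 arrays.

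Among the sulfotransferases, CHST3, CHST11, CHST12, CHST13, CHST14 and CHST15 act on chondroitin or dermatan chains, and CHST8 and CHST9 on N-acetylgalactosamine of glycoproteins. CHST3 averaged 8.82 ± 0.18 in LPS+RSV cells, 8.86 ± 0.08 in LPS cells and 8.79 ± 0.14 in Control cells (SD, n = 5 each). CHST9 had the widest span of the whole set, 4.39-fold, between 6.61 on LPS+RSV 1 and 8.74 on Control 2. CHST5, the intestinal sulfotransferase of N-acetylglucosamine, lay at 5.51 to 5.96, and its near copy CHST6 at 4.96 to 5.65. Their probes may not tell these copies apart, which was not tested. CHST1 and CHST4, which sulfate keratan-type and selectin-ligand chains, exceeded the filter level on 8 and 9 arrays and CHST7 on 12, while CHST2 did so on none. CHST10, which makes the HNK epitope of neural glycoproteins, lay at 5.24 to 5.64. The 2 rows of CHST6 gave LPS minus Control as -0.21 and 0.09.

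The promoters of 4 genes with slopes on a score of enterocyte genes, described further on, are shown. FUT2 and CHST13 rose with the score, and CHST9 and GALNT7 fell. These 4 are the protein-coding genes with the lowest p in each direction among those with 1 annotated start. Each window is the 250 bases before the annotated start (RefSeq, GRCh38.p14), written 5′ to 3′ on the gene's strand, and capitals mark matches to the motifs listed after them. FUT2 lies at chr19:48695721-48695970 on the plus strand, CHST13 at chr3:126523905-126524154 on the plus strand, CHST9 at chr18:27185309-27185558 on the minus strand and GALNT7 at chr4:173168561-173168810 on the plus strand.
FUT2: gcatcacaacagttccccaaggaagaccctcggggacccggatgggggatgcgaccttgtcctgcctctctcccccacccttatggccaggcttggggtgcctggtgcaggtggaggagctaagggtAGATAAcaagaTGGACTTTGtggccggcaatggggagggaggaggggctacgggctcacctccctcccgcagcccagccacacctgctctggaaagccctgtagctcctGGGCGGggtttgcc
CHST13: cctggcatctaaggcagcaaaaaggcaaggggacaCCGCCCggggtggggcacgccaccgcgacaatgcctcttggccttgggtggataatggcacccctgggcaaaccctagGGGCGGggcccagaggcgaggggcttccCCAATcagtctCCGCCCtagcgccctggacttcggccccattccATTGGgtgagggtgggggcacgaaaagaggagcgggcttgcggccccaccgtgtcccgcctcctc
CHST9: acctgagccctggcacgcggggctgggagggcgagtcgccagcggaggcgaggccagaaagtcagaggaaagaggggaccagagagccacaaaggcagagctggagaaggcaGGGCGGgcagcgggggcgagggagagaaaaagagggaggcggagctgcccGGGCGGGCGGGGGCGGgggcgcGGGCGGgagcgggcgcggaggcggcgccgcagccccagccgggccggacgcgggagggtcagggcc
GALNT7: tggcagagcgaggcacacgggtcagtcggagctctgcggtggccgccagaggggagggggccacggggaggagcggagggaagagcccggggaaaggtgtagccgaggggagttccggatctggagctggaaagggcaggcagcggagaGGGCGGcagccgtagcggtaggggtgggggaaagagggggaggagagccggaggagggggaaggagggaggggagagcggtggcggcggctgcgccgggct

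Of the 7 motifs searched on both strands, the HNF4 motif CAAAGNCCA matched once in FUT2, 112 bases before the start, on the opposite strand. This motif occurred in 1.34% of 35116 windows of the same length. AGATAA, bound by GATA factors, matched once in FUT2, 123 bases before the start, and in 9.17% of all windows. The GC box GGGCGG matched 1 time in FUT2, 3 times in CHST13, 5 times in CHST9 and 1 time in GALNT7, against a share of 42.6% of windows with any match, and neighbouring matches in CHST9 overlapped. CCAAT matched 2 times in CHST13 (32.0% of windows). GTTAAT (part of an HNF1 site, 6.23%), TTTATG (CDX, 9.64%) and TATAAA (10.7%) matched in none of the 4. GC content was 64.0% for FUT2, 67.6% for CHST13, 76.4% for CHST9 and 72.4% for GALNT7. A match describes the letters of these windows and no more.

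LPS against Control asked what endotoxin alone did. None of the 37 tested genes passed limma's test at an adjusted p under 0.05 over 11804 genes, where 0.0254% of all tested genes did. At an unadjusted p under 0.05, 3 of the 37 (8.11%) stood out, beside 7.88% of all genes, so the share was close to the background. Differences were positive for 18 of the 37 (48.6%) and for 52.7% of all genes, with medians of -0.01 for the set and 0.01 for all genes. In none of the 37 were the LPS and Control arrays fully separated, against 2.21% of all genes.

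GALNT6, an initiating transferase, had the lowest p of the set. It measured 7.81, 8.09, 7.91, 8.13 and 8.11 in LPS cells and 7.87, 7.82, 7.79, 7.86 and 7.68 in Control cells. LPS 1 lay within the Control range and the other 4 LPS arrays above it. The difference was 0.21 ± 0.08 (SE; limma adjusted p = 0.56). Other genes had higher p-values. CHST6 had -0.21 (limma adjusted p = 0.621), and CHST7, a sulfotransferase with activity on chondroitin, had 0.22 (adjusted p = 0.634). CHST12 had -0.17 (limma adjusted p = 0.64), with an unadjusted p of 0.0541. CHST6 had -0.34 without LPS 1 and LPS 2 and -0.13 without LPS 3, and its other row gave 0.09. CHST7 had 0.145 without LPS 1 and LPS 2 and 0.147 without Control 3. GALNT1 had 0.27 ± 0.21 (SE), a value that turned to -0.03 without LPS 1 and LPS 2, at 10.07 and 10.06 the highest of its 15 arrays. FUT2 differed by -0.01, with a 95% interval of -0.45 to 0.42, so a moderate change in either direction was not detectable with 5 arrays a group.

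LPS+RSV against LPS asked what resveratrol pretreatment changed under endotoxin. None of the 37 genes passed the adjusted test, against 0.0424% of all genes. At an unadjusted limma p under 0.05 there were 8 of 37 (21.6%), beside 18.6% of all genes. Of these, 6 were higher in LPS+RSV cells (16.2%, beside 8.08% of all genes) and 2 lower (5.41%, beside 10.5%). Differences were positive for 24 of 37 (64.9%) and for 52.1% of all genes, with medians of 0.07 and 0.01. On LPS+RSV 1 the 44 genes lay at a median of 0.178 above their means over all arrays. On the other LPS+RSV arrays that median was 0.007 to 0.023. The shares without LPS+RSV 1 were not computed. No gene of the set had fully separated groups, against 2.80% of all genes.

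GALNT1 had the lowest p and the largest difference. It measured 8.20, 9.05, 9.43, 9.28 and 9.04 in LPS+RSV cells and 10.07, 10.06, 9.35, 9.36 and 9.25 in LPS cells. Both extremes were arrays that stood apart in the data as a whole: LPS+RSV 1 was the lowest and LPS 1 and LPS 2 the highest, while the remaining arrays of the groups overlapped. The difference was -0.62 ± 0.21 (SE; 95% interval -1.05 to -0.18; limma adjusted p = 0.166). It was -0.42 without LPS+RSV 1, -0.32 without LPS 1 and LPS 2, and -0.12 without all 3 arrays.

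GALNT3 had a similar layout of arrays. It measured 8.32, 8.68, 8.60, 8.63 and 8.71 in LPS+RSV cells and 8.87, 8.91, 8.67, 8.77 and 8.70 in LPS cells. The difference was -0.20 (limma adjusted p = 0.201), and LPS+RSV 1 was again the lowest array and LPS 1 and LPS 2 the highest. Without these 3 arrays it was -0.06.

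CHST12, a chondroitin sulfotransferase, measured 7.62, 7.58, 7.54, 7.50 and 7.69 in LPS+RSV cells and 7.24, 7.32, 7.60, 7.35 and 7.26 in LPS cells. LPS 3 alone lay inside the LPS+RSV range. The difference was 0.23 ± 0.08 (SE; limma adjusted p = 0.169). Its relative CHST13 measured 7.98, 7.15, 7.47, 7.44 and 7.60 in LPS+RSV cells and 7.27, 7.17, 7.45, 7.16 and 7.07 in LPS cells, with a difference of 0.31 ± 0.13 (SE; limma adjusted p = 0.221). It was 0.19 without LPS+RSV 1, and 0.10 with a score of cell cycle genes, defined further on, as a covariate (limma adjusted p = 0.784). CHST6 (0.23), GALNT9-AS1 (0.31), GALNT17 (0.17) and the pseudogene MGAT4FP (0.16) made up the rest of the 6 higher genes. The other, dimmer row of MGAT4FP gave 0.04. CHST6 had 0.15 without LPS 3, 0.36 without LPS 1 and LPS 2, and 0.38 without the 3 arrays that stood apart. GALNT9-AS1 had 0.14 with the cell cycle score as a covariate and 0.24 without LPS+RSV 1. GALNT9-AS1 is the antisense transcript of the GALNT9 locus. The LPS arrays enter both this comparison and the one with Control, so opposite signs in the 2, as for CHST12 and CHST6, share their source.

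**Figure D2:**
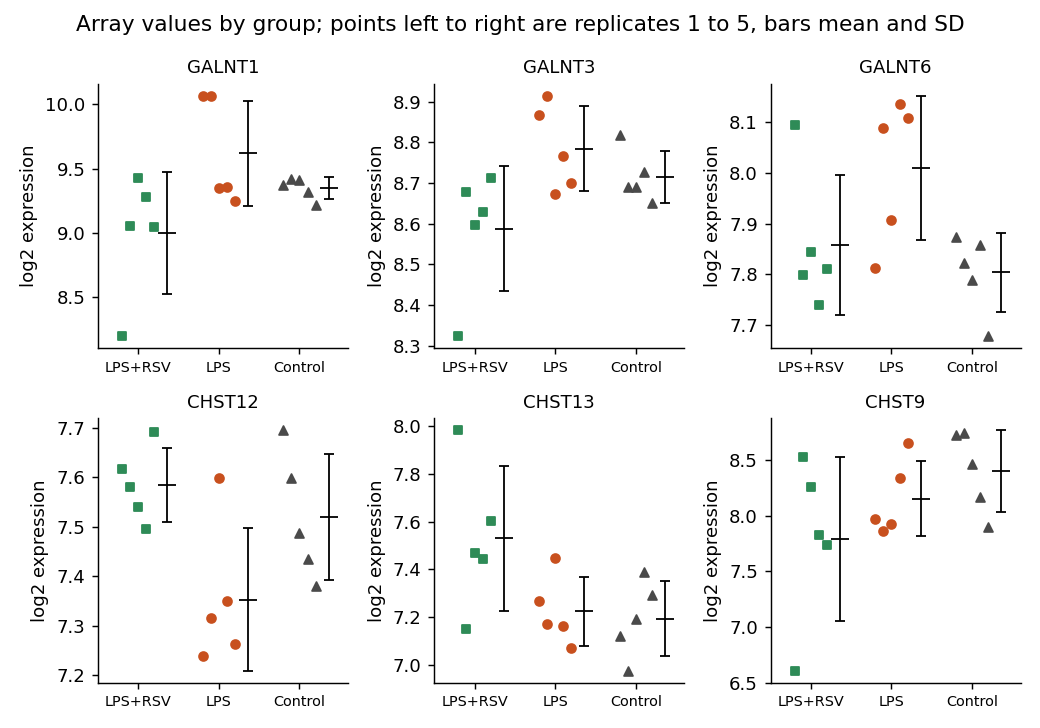
Log2 signal (vertical axes, not starting at 0) of 6 genes on each array, by group (horizontal axes), with bars for mean and SD of 5 arrays. GALNT1 sets LPS+RSV 1 at 8.20 against LPS 1 and LPS 2 near 10.07, and CHST12 has LPS 3 as the 1 LPS array inside the LPS+RSV range.

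LPS+RSV against Control asked whether the pretreated, endotoxin-exposed cells differed from untreated ones. None of the 37 genes passed the adjusted test, against 0% of all genes. Unadjusted limma p-values under 0.05 were found for 4 of 37 (10.8%), beside 10.5% of all genes. Differences were positive for 27 of 37 (73.0%), against 55.8% of all genes, with medians of 0.07 and 0.02. On LPS+RSV 1 the set lay at a median of 0.178 above its means, and whether that array moved the share was not tested. The share without that array was not computed. No gene had fully separated groups, against 1.72% of all genes.

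CHST13 had the lowest p, with 7.98, 7.15, 7.47, 7.44 and 7.60 in LPS+RSV cells against 7.12, 6.97, 7.19, 7.39 and 7.29 in Control cells. LPS+RSV 2 lay inside the Control range and the other 4 above it. The difference was 0.34 ± 0.13 (SE; limma adjusted p = 0.464), or 0.22 without LPS+RSV 1. CHST11, another chondroitin sulfotransferase, had 0.22 and GALNT9 0.25 (limma adjusted p = 0.464 for both).

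CHST9 measured 6.61, 8.53, 8.25, 7.82 and 7.74 in LPS+RSV cells and 8.73, 8.74, 8.46, 8.17 and 7.90 in Control cells. The difference of -0.61 ± 0.28 (SE; limma adjusted p = 0.475) became -0.31 without LPS+RSV 1. ALG13 likewise had -0.34 with that array and -0.14 without it. The values of these genes therefore rested in part on 1 array.

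**Figure D3:**
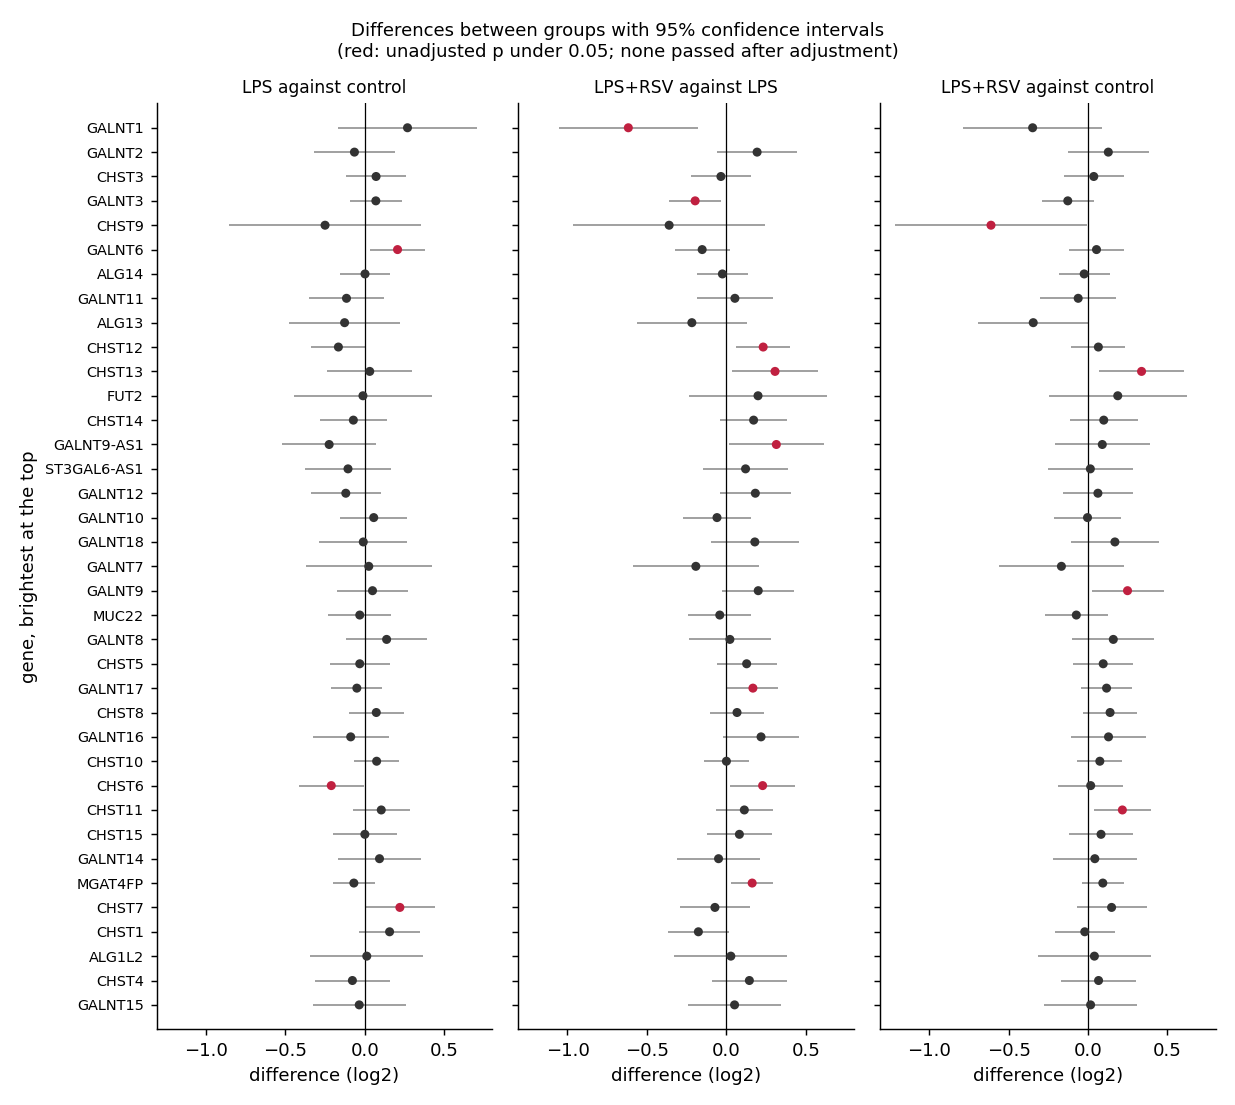
Differences between groups (horizontal axes, log2) with 95% intervals for the 37 tested genes, LPS against Control on the left, LPS+RSV against LPS in the middle and LPS+RSV against Control on the right. Red points had an unadjusted limma p under 0.05, and none passed after adjustment over 11804 genes.

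The spread between arrays of 1 group was then set against a score standing in for the maturity of the cultures, which was not measured. A score of differentiation was taken as the mean of 18 enterocyte genes on each array, centred over all arrays. It ran between -0.55 and 0.49 in LPS+RSV cells, -0.46 and 0.13 in LPS cells, and -0.47 and 0.36 in Control cells. LPS+RSV minus LPS was 0.25 for this score (two-sided exact permutation p = 0.278, adjusted 0.556 over 6 comparisons, n = 5 each, where the smallest possible p was 0.00794). A score of 33 cell cycle genes ran the other way: with group means removed, the 2 scores correlated at r = -0.939 (Spearman rho = -0.871, permutation p = 1e-05 and 8e-05 over 15 arrays, the first the smallest that 100000 resamples can give), and at -0.919 without the 2 farthest arrays. The cell cycle score differed by -0.74 between LPS+RSV and LPS (exact permutation p = 0.0476, adjusted 0.286, n = 5 each), a difference that did not pass after adjustment. With the cell cycle score as a covariate, LPS+RSV minus LPS was 0.10 for CHST13, 0.14 for GALNT9-AS1 and -0.04 for ALG13, whose values without it were 0.31, 0.31 and -0.22. GALNT1, at -0.62, and CHST12, at 0.25, kept about the same values. Without LPS+RSV 1 and with no covariate, the difference was 0.19 for CHST13, 0.24 for GALNT9-AS1 and -0.02 for ALG13. The differentiation score comes from the same arrays as the genes, so anything technical that moved both would also give a slope. Since the 2 scores ran so closely opposite, differentiation and lower proliferation cannot be told apart in these slopes.

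Of the 37 genes, 10 (27.0%) had a slope on the differentiation score within groups at a limma adjusted p under 0.05, where 26.5% of 11786 tested genes did. The share was that of the background and says nothing particular of the set. Slopes were positive for 7 (18.9%, beside 10.9% of all genes) and negative for 3 (8.11%, beside 15.6%). The median size of the slope was 0.09 for the set and 0.16 for all genes. In these bulk samples, fewer cells of a type and less RNA per cell cannot be told apart.

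FUT2 had the slope of lowest p: its log2 level was higher by 0.87 ± 0.11 (SE; limma adjusted p = 2.54e-05) per log2 unit of the score. The direction was the same within each group, with slopes of 1.07 in LPS+RSV, 0.91 in LPS and 0.63 in Control arrays. In LPS+RSV cells its lowest value (6.57) fell on array 2, which had the lowest score, and its highest (7.80) on array 1, which had the highest. Slopes for FUT2 stayed between 0.79 and 0.93 when any 1 array was left out.

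Of 15 tested GALNT genes, 2 rose with the score, 2 fell and 11 did not pass, a share near that of all genes. GALNT2 rose with the score, with a slope of 0.40 ± 0.10 (SE; limma adjusted p = 0.00638), as did GALNT9, a member expressed mainly in brain, with 0.38 ± 0.08 (SE; adjusted p = 0.00269). GALNT7 fell with it, with a slope of -0.68 ± 0.14 (SE; limma adjusted p = 0.00203), and GALNT11 with -0.34 ± 0.10 (SE; adjusted p = 0.0193). GALNT7 had its highest LPS+RSV value, 6.48, on array 2 and its highest Control values, 6.59 and 6.51, on arrays 1 and 2, the Control arrays of lowest score. Within LPS arrays alone its slope was -0.11, against -0.71 in LPS+RSV and -0.93 in Control arrays, and whether these differ was not tested. GALNT1 had no measurable slope (-0.03, 95% interval -0.55 to 0.49), nor did MUC22 (-0.02, 95% interval -0.25 to 0.22).

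Among the sulfotransferases CHST9 had the steepest slope of the set, -1.10 ± 0.20 (SE; limma adjusted p = 0.0006), with -1.34 in LPS+RSV, -1.09 in LPS and -0.85 in Control arrays. It was -0.89 without LPS+RSV 1. CHST13 rose with the score at 0.45 ± 0.10 (SE; limma adjusted p = 0.00288). CHST13 and CHST9 also had the largest differences of the CHST genes between LPS+RSV and Control, and with the score as a covariate these were 0.25 for CHST13 and -0.39 for CHST9. The other 12 tested CHST genes did not pass, with slopes between -0.24 (CHST14) and 0.10 (CHST1).

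The remaining transcripts that passed had positive slopes: ST3GAL6-AS1 with 0.40 (limma adjusted p = 0.0156), ALG1L2 with 0.49 (adjusted p = 0.029) and GALNT9-AS1 with 0.39 (adjusted p = 0.0392). The calls of ALG1L2, GALNT9-AS1 and GALNT11 were each lost when some single array was left out. ALG13 missed the threshold, with a slope of -0.44 (limma adjusted p = 0.0544). Without the 2 arrays of farthest score, LPS+RSV 2 and Control 2, 7 of the 37 passed, and CHST13, ST3GAL6-AS1 and GALNT7 were among those lost.

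**Figure D4:**
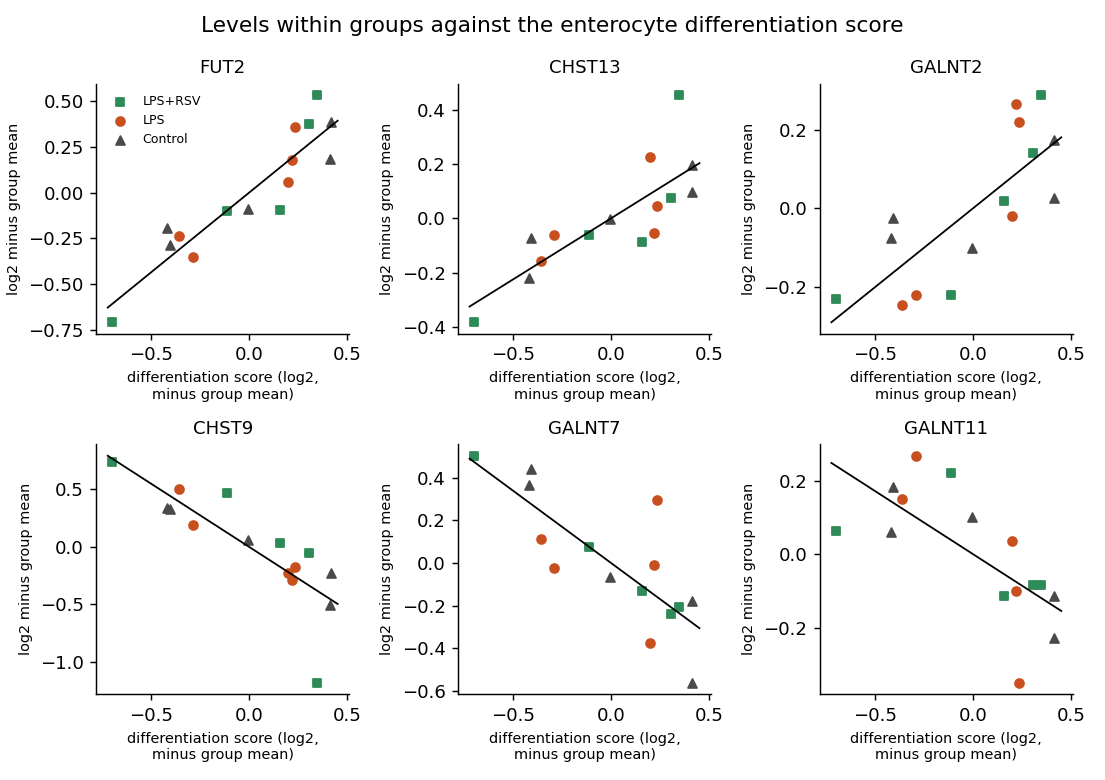
Log2 level (vertical axes, minus the group mean) of 6 genes against the differentiation score (horizontal axes, log2, minus the group mean), 1 point per array, with the fitted common slope as a line. FUT2, CHST13 and GALNT2 run upward and CHST9, GALNT7 and GALNT11 downward, with LPS+RSV 2 at the left edge.

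**Figure D5:**
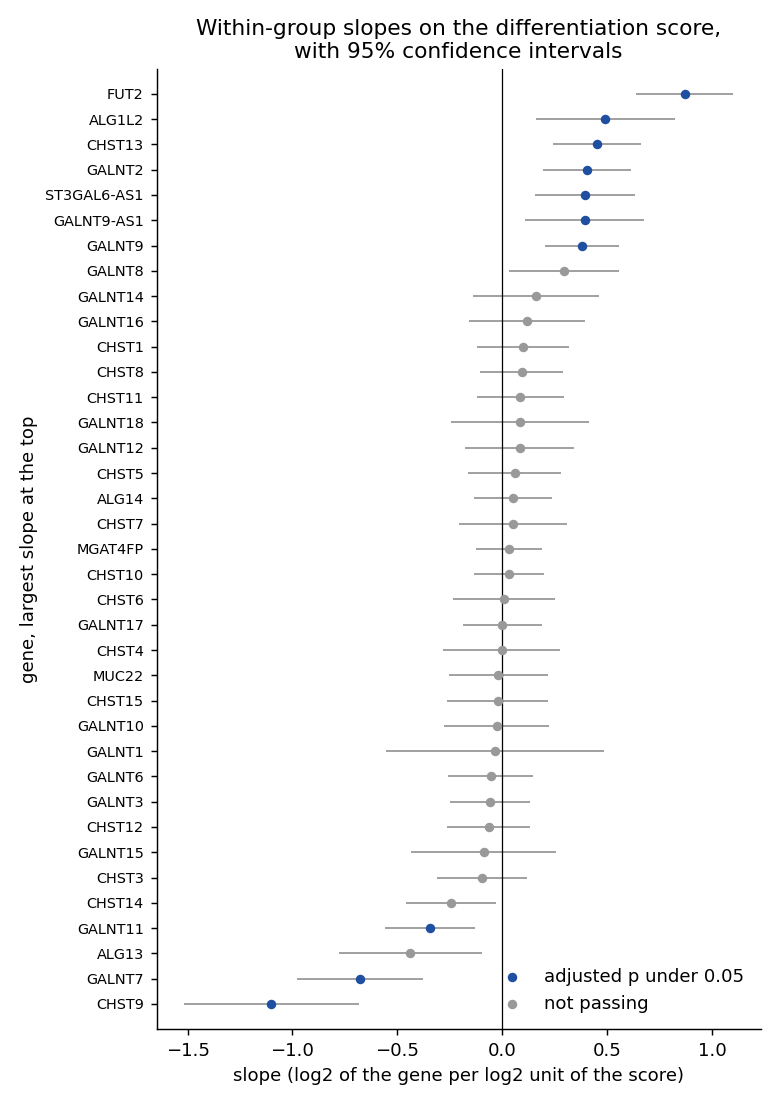
Slopes on the differentiation score (horizontal axis, log2 per log2 unit of the score) with 95% intervals for the 37 tested genes. The 10 that passed at a limma adjusted p under 0.05 are in blue, from FUT2 at 0.87 to CHST9 at -1.10.

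Some markers of other intestinal cells also had slopes on the score. Of 11 tested goblet cell markers, 4 had a positive and 1 a negative slope at the same threshold, beside 10.9% and 15.6% of all genes, led by ZG16 (1.98), a secretory granule protein, and TFF2 (1.38), a trefoil peptide. The centred mean of the goblet list ran between -0.16 and 0.26 in LPS+RSV, -0.26 and 0.28 in LPS, and -0.19 and 0.08 in Control arrays. Of 3 Paneth cell markers, ITLN2 rose (1.07), LYZ fell (-1.37) and REG3A did not pass, and none of 4 enteroendocrine markers passed. All 33 cell cycle genes had negative slopes that passed, and with the cell cycle score, its sign turned, in place of the differentiation score 8 of the 37 genes passed. The part of goblet content in the slopes of FUT2, CHST9 and the others was not tested.

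The genes that supply and complete these chains were looked at as lists beside the set. In the 3 group comparisons, none of 12 other O-glycan enzymes and partners, 16 genes of the dolichol pathway and oligosaccharyltransferase, 8 N-glycan trimming genes or 20 genes of nucleotide sugar synthesis and transport passed the adjusted limma test. PAPSS2, which makes the sulfate donor used by the CHST enzymes, had 0.63 ± 0.19 in LPS minus Control (SE; limma adjusted p = 0.351). On the slope, where 26.5% of all genes passed (10.9% rising and 15.6% falling), 4 O-glycan genes rose and 1 fell, among them XYLT2, which starts chondroitin and heparan chains (0.54), and POFUT1, which fucosylates Notch (0.33). In the sugar supply list 2 rose and 4 fell, with GALK1, the galactokinase, at 0.51, CMAS, which activates sialic acid, at -0.55, and PAPSS1, the other sulfate donor synthase, at -0.41. ENGASE (0.91), which frees glycans from proteins, and MOGS (0.37), which trims the first glucose, rose in the trimming list, and 1 gene rose and 2 fell in the dolichol list. These are few genes a list, and nothing particular to a list is drawn from them.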

How the data were processed

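Expression was measured on 15 Affymetrix whole-transcript arrays, from 300 ng of total RNA each. The deposited values were log2 expression values made with RMA, per the submitters' processing notes, with the version and array genome build not given in the sources used here. RMA equalises the arrays, so a shift of most genes together would not be seen. The platform annotation gave 1 symbol to 16098 of 53617 rows, covering 14884 symbols, and the brightest row stood for each. Genes above the 40th percentile of an array on at least 5 arrays were tested (11804). Groups came from the sample titles.

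Groups were compared with limma 3.58.1 (R 4.3.3), lmFit and eBayes over all 3 groups, with Benjamini-Hochberg adjustment over all tested genes and a threshold of 0.05. The slope came from a fit of group means plus the differentiation score, with the score's genes left out. Score differences used exact permutation tests (SciPy 1.17.1). The number of arrays limits the precision. Named genes were every mucin, the 5 of lowest p in each direction of each comparison, up to 8 called in each direction for the slope, and the brightest of each family, besides members named for their identity or level alone. GALNT17 in LPS+RSV against LPS, and FUT2 in LPS against Control, were added after their values were seen. Members and lists were chosen with earlier results of these data known. The code was tested on simulated data. Alternatives covered the filter, rows per gene, normalization, moderation, array weights, groups in the fit, a replicate block, scores as covariates, and arrays left out.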

Additional observations from a re-analysis of the deposited data

Results flagged for a closer look

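Single arrays lay far from the other 4 of their group, by Dixon's test at the 95% level, in 5 of 81 groups of 27 genes. Chance flags about 5% of groups. ALG13 on LPS+RSV 1 was 6.60, with the nearest LPS+RSV array at 7.48. GALNT9 on LPS+RSV 2 was 5.90, with the nearest at 6.09, and GALNT9 on LPS 5 was 5.55, with the nearest at 5.93. Both were arrays of the lowest differentiation score in their group, and GALNT9 had a positive slope on that score. MGAT4FP on LPS 2 was 5.34, with the nearest LPS array at 5.12. CHST3 on Control 3 was 9.03, with the nearest Control array at 8.73.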

How the results depend on the processing

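The count of genes of the set passing in the 3 group comparisons was 0 under every alternative run, including leaving out each array (range 0 to 0), and the count for the slope lay between 7 and 11. After removal of group means, same-numbered arrays correlated at -0.54 to 0.12 for LPS and Control and at -0.37 to 0.10 for LPS+RSV and LPS. In neither was the array of the same number the best match of any array. For LPS+RSV and Control the correlations ran from -0.44 to 0.71. There the Control array of the same number was the best match of LPS+RSV 2, 4 and 5. Whether the numbers mark shared cultures was not tested. With a replicate block the counts of the set were 0, 0, 0 and 10.

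Over all tested genes the counts in LPS against Control, 3, and LPS+RSV against LPS, 5, moved with the settings. They were 15 and 25 with array weights, 108 and 173 with the differentiation score as a covariate, 69 and 20 with the cell cycle score as a covariate, 0 and 0 with only the 2 groups compared, and 6 and 3 with the replicate block. LPS+RSV against LPS gave 20 after quantile normalization again, and 1 both without LPS 1 and LPS 2 and without the 3 arrays that stood apart, a setting chosen after seeing the data. Leaving out 1 array gave 1 to 10 (LPS against Control), 1 to 121 (LPS+RSV against LPS), 0 to 0 (LPS+RSV against Control) and 2230 to 3250 for the slope, where 3122 genes passed, and 1643 did without the 2 arrays of farthest score. The causes were not tested.

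Reversals concerned MUC22, whose differences lay near 0, and GALNT1. With the mean of all rows MUC22 had 0.12 in LPS against Control, 0.088 in LPS+RSV against Control and 0.18 for the slope. With the cell cycle score as a covariate its LPS+RSV against LPS difference was 0.000243. Its slope was 0.0804 with the replicate block, 0.0618 without the 2 arrays of farthest score and 0.15 in LPS arrays alone. Leaving out 1 array gave MUC22 -0.0828 to 0.00351 (LPS against Control), -0.0799 to 0.041 (LPS+RSV against LPS), -0.112 to 0.00925 (LPS+RSV against Control) and -0.0594 to 0.0569 (slope). GALNT1 in LPS against Control was -0.0294 both without LPS 1 and LPS 2 and without the 3 arrays that stood apart. The number of arrays, and for the dimmest genes a signal near the filter level, limits what could be detected.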
